A study of Mus musculus with 2 samples.

Results

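The miR-15, miR-16 and miR-497 families were described here in the limb of the mouse embryo through 5 microRNA genes, Mir15b, Mir16-2, Mir15a, Mir16-1 and Mir497b, of 1973 gene rows in all. The genes were chosen by name, as relatives of miR-15 and miR-16, and not by a threshold on measured values, though earlier results of these data were known. For Mir497b the strand was chosen where the reads of Mir497 lie. The related Mir195a is not among the 5 genes. Small RNA below 30 nucleotides was sequenced from limbs taken 12.5 days into development from healthy embryos of the strain B6NCrl, with males and females pooled. Replicate 1 came from 88 embryos and replicate 2 from 68, and the labels name them biological replicates of a single group, so no condition was compared. Values are read counts per gene, expressed as CPM (counts per 1000000 counts on microRNA genes, the gene's own strand), with the SD over 2 replicates.

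MicroRNAs are short RNAs cut from a hairpin precursor. They bind messenger RNAs mainly through the seed, bases 2 to 8 of the mature strand, and lower their translation and stability. Members of the miR-15 and miR-16 family are known to restrain the cell cycle by repressing cyclins and their kinases, and to repress the survival gene Bcl2. The genes lie as neighbouring pairs. Mir15b and Mir16-2 sit in Smc4, which encodes a subunit of the condensin complex that compacts chromosomes. Mir15a and Mir16-1 sit in Dleu2, a long non-coding RNA that in humans is often deleted in chronic lymphocytic leukaemia.

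The mature 5′ products of the family are shown for their common seed. The sequences below run 5′ to 3′, are those of RefSeq on GRCm38.p6, the assembly also called mm10, and have the seed in capitals. All 5 genes had a mature entry in that table.
miR-15b-5p: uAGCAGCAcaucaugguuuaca
miR-15a-5p: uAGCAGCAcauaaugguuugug
miR-16-5p: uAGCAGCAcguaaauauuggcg
miR-497a-5p: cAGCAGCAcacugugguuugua
miR-195a-5p: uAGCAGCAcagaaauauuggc
Compared base by base from the 5′ end, miR-15b-5p and miR-15a-5p were identical at 18 of 22 bases, with the first difference at base 12. Among these products the nearest to miR-16-5p was miR-195a-5p, identical at 19 of the 21 bases compared.

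The 3′ products have other seeds and differ between the copies. They are shown because the Mir16 copies, which cannot be told apart by their 5′ product, can be by this one.
miR-16-2-3p: aCCAAUAUuauugugcugcuuu
miR-16-1-3p: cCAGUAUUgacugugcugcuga
miR-15b-3p: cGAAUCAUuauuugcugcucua
miR-15a-3p: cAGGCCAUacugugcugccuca
The longest stretch of either Mir16 3′ product found in another microRNA gene of the RefSeq table was 9 bases for miR-16-2-3p and 11 bases for miR-16-1-3p.

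The Mir16 copies yield one and the same 5′ product. Their hairpins share an unbroken stretch of 23 bases, in capitals below, which holds the whole 22 bases of miR-16-5p and 1 base beyond it.
Mir16-2: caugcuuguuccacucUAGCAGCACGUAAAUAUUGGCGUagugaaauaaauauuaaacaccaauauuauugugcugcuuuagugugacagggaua
Mir16-1: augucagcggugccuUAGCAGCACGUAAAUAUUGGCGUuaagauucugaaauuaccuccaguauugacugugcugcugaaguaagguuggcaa
A read of miR-16-5p therefore matches both places, and the deposited tables keep reads that map to several places apart from the genes. The values of Mir16-2 and Mir16-1 are lower limits for that reason, and the arms of a hairpin were not counted apart. At a shared stretch of 20 bases these were the only members affected, against 118 of the 927 gene rows with a RefSeq sequence (12.7%). No mature arm of Mir15b or Mir15a shared more than 11 bases with another gene.

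In the genome, Mir15b lies at chr3:69009772-69009835 and Mir16-2 at chr3:69009902-69009996, both on the plus strand, 66 bases apart, in an intron of all 5 Smc4 transcripts that span them. Mir15a lies at chr14:61632027-61632110 and Mir16-1 at chr14:61631880-61631972, both on the minus strand and 54 bases apart. Mir15a is intronic in the 8 Dleu2 transcripts over it, and Mir16-1 is intronic in 8 and overlaps an exon of 1. Mir497b lies on the minus strand at chr11:70234692-70234816, opposite to Mir497 at chr11:70234717-70234800. Mir497 has no row among the measured genes. The reverse complement of its 84 bases makes up bases 17 to 100 of the Mir497b hairpin, in capitals here.
Mir497b: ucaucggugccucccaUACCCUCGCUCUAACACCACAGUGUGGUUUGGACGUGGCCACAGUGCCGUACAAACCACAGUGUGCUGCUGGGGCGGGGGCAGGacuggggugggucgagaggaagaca
Reads opposite to Mir497b thus cover the Mir497 hairpin, together with 41 flanking bases, and stand for Mir497 below.

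The libraries held 4525636 counts on microRNA genes in replicate 1 and 3604284 in replicate 2. Reads set apart for mapping to several places made up 27.2% of all reads in replicate 1 and 23.7% in replicate 2. A count of 0 allows up to 3 counts, which is 0.663 CPM in replicate 1 and 0.832 CPM in replicate 2, and these floors and all intervals cover counting error only. Of the limb's own microRNAs, all 4 checked Hox-cluster genes were present (3302 to 86831 CPM in the mean), as was Mir140 of cartilage at 23899 ± 1020 CPM, Mir206 of skeletal muscle at 2347 ± 213, Mir205 of ectoderm at 7403 ± 120 and Mir126a of endothelium at 18968 ± 624 CPM. Red blood cell Mir451a stood at 174 ± 54 CPM, liver Mir122 at 15.0 ± 2.8 CPM, and the neural Mir124a copies, which also share their mature sequence, at 0. In whole limb tissue a lower level in every cell and a smaller number of expressing cells cannot be told apart.

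Each of the 5 genes reached the 10 CPM set for detection in replicate 1 and in replicate 2, as did 14.5% of all gene rows. Mir497b did so on the opposite strand, where the reads of Mir497 lie. Its own strand held 5 counts in replicate 1 and 3 in replicate 2. All other gene rows were judged on their own strand. The median level of the 5 genes was 1267 CPM, beside 271 CPM over the 287 detected genes. The assigned reads of the 5 genes amounted to 0.776% of the own-strand counts in replicate 1 (95% Clopper-Pearson interval 0.768 to 0.785). In replicate 2 they amounted to 0.773% (0.764 to 0.783). That total leaves out the opposite-strand reads of Mir497b, 3042 in replicate 1 and 2326 in replicate 2. The intervals treat these reads as part of it.

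Among the 5 members Mir15a had the most assigned reads. It had 15293 counts (3379 CPM) in replicate 1 and 13648 counts (3787 CPM) in replicate 2. That was 46.2% ± 3.8 of the members' assigned counts, which leave out reads of miR-16-5p that match both copies. Mir15a stood at rank 51 of all genes in replicate 1 and rank 54 in replicate 2. Mir16-1, its Dleu2 neighbour, had 9528 counts (2105 CPM) in replicate 1 and 5922 counts (1643 CPM) in replicate 2. Unlike Mir15a it was higher in replicate 1.

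The members in Smc4 were lower in assigned reads. Mir15b had 5329 counts (1178 CPM) in replicate 1 and 4886 counts (1356 CPM) in replicate 2. By assigned reads Mir16-2 was the lowest member, with 1945 counts (430 CPM) in replicate 1 and 1096 counts (304 CPM) in replicate 2. Mir15b, like Mir15a, was higher in replicate 2, and Mir16-2, like Mir16-1, in replicate 1. On the strand opposite to these 4 genes both libraries held 0 counts.

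Mir497, read opposite to Mir497b, had 3042 counts (672 CPM) in replicate 1 and 2326 counts (645 CPM) in replicate 2. Its SD was 2.88% of its mean, the smallest among the members. The own strand of Mir497b, which would carry its annotated product miR-497b with a seed unlike that of the family, held 5 counts in replicate 1 and 3 in replicate 2. Capitals mark that seed.
miR-497b: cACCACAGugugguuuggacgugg

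**Figure D1:**
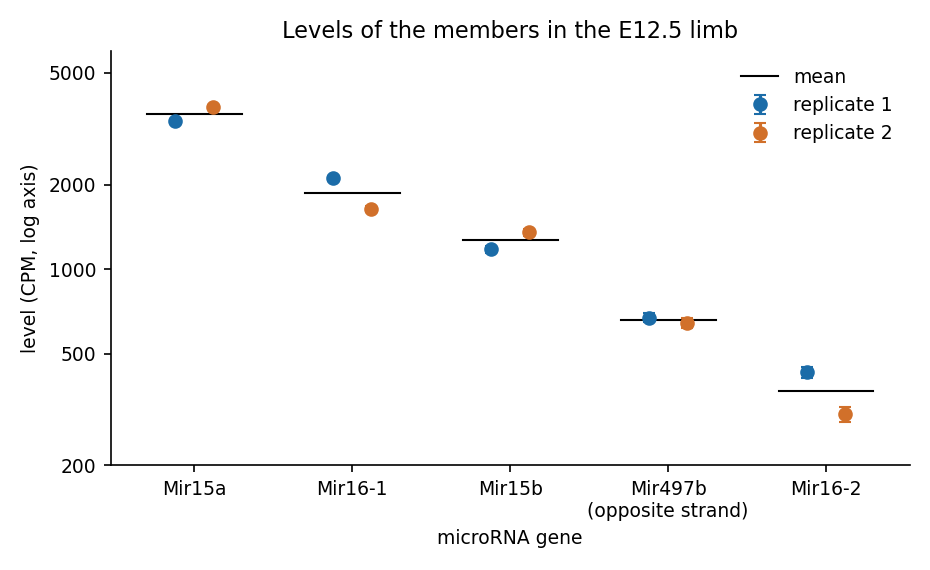
Level of each member (vertical axis, CPM, log axis) in replicate 1 (blue) and replicate 2 (orange), with exact 95% Poisson intervals for counting error as bars and the mean as a line. By assigned reads the order runs from Mir15a at 3583 CPM in the mean to Mir16-2 at 367. No 2 neighbouring genes overlap between the libraries.

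By mean level the order was Mir15a (3583 ± 288 CPM), Mir16-1 (1874 ± 327), Mir15b (1267 ± 126), Mir497b (659 ± 19) and Mir16-2 (367 ± 89 CPM). Here and below, the values of Mir497b are those of its opposite strand, where the reads of Mir497 lie. Each gene's lower library exceeded the higher library of the next gene, the closest being Mir16-1 in replicate 2 (1643 CPM) over Mir15b in replicate 2 (1356 CPM). Reads of miR-16-5p that match both copies are left out, so Mir16-1 and Mir16-2 may stand higher than this order gives them. With 2 libraries an exact sign-flip test cannot go below a p of 0.5, so none was run and the order is given as a description.

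Other genes stood at the same levels. Nearest in mean CPM were Mirlet7d above and Mir615 below Mir15a, Mir98 and Mir125b-1 for Mir16-1, Mir28a and Mir542 for Mir15b, Mir106a and Mir540 for Mir497b, and Mir494 and Mir450b for Mir16-2. The differences in log2 mean CPM reached at most 0.12 in size, between Mir615 and Mir15a, and every such neighbour overlapped its member over the 2 libraries. These genes are alike in level only.

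The Smc4 pair gave fewer assigned reads than the Dleu2 pair in both libraries. The Smc4 pair summed to 1607 CPM in replicate 1 and 1660 CPM in replicate 2, and the Dleu2 pair to 5485 CPM and 5430 CPM in the same libraries. The ratio of the Smc4 pair to the Dleu2 pair was 0.293 in replicate 1 (95% interval 0.285 to 0.301). In replicate 2 it was 0.306 (0.297 to 0.315), and the mean log2 ratio was -1.74 ± 0.04 (SD, n = 2). The libraries differed in this log2 ratio by -0.06 (replicate 1 minus replicate 2, counting SE 0.03). The inverse, Dleu2 pair over Smc4 pair, was 3.41 in replicate 1 and 3.27 in replicate 2. How well each sequence was captured was not measured, so these ratios compare reads, not molecules.

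The Mir15 genes, whose mature arms are each unique, gave the same direction without the Mir16 copies. The ratio of Mir15b to Mir15a was 0.348 in replicate 1 (0.338 to 0.360) and 0.358 in replicate 2 (0.346 to 0.370), a mean log2 ratio of -1.50 ± 0.03. The libraries differed in this ratio by -0.04 on the log2 scale (replicate 1 minus replicate 2, counting SE 0.03). Between the Mir16 copies the gap was wider, with a ratio of Mir16-2 to Mir16-1 of 0.204 in replicate 1 (0.194 to 0.214) and 0.185 in replicate 2 (0.173 to 0.197), a mean log2 ratio of -2.36 ± 0.10. The libraries differed in the ratio of the Mir16 copies by 0.14 on the log2 scale (counting SE 0.06). This ratio rests on the reads that map to a single copy.

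Within each pair the Mir16 gene gave fewer assigned reads than its Mir15 neighbour, and by an amount that moved between the libraries. Mir16-2 stood at 0.365 of Mir15b in replicate 1 (0.346 to 0.385) and 0.224 in replicate 2 (0.210 to 0.240). Mir16-1 stood at 0.623 of Mir15a in replicate 1 (0.607 to 0.639) and 0.434 in replicate 2 (0.421 to 0.447). On the log2 scale the ratio was higher in replicate 1 by 0.70 in the Smc4 pair (counting SE 0.06) and by 0.52 in the Dleu2 pair (counting SE 0.03). Both pairs shifted the same way, and in neither did the counting intervals of the libraries overlap.

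While the split of assigned reads between Mir15 and Mir16 moved, the assigned reads of the pairs summed to levels that differed by less than the counting error. Reads that match both Mir16 copies are left out of this sum, which is therefore incomplete. Whether the full output of the pairs was the same in the libraries was not tested. The 4 genes of both pairs summed to 7092 CPM in replicate 1 (0.701% to 0.717% of the counts) and 7089 CPM in replicate 2 (0.700% to 0.718%). Within this sum the Mir16 genes made up 35.7% of the counts in replicate 1 (35.2 to 36.3) and 27.5% in replicate 2 (26.9 to 28.0). Reads mapping to several places made up 27.2% of all reads in replicate 1 and 23.7% in replicate 2. These shares have another base than CPM, as they are taken over all reads. Counts on microRNA genes were 42.5% and 37.0% of all reads in the same libraries, and unmapped reads 23.8% and 32.6%. The part of reads mapping to several places in the shift was not tested.

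**Figure D2:**
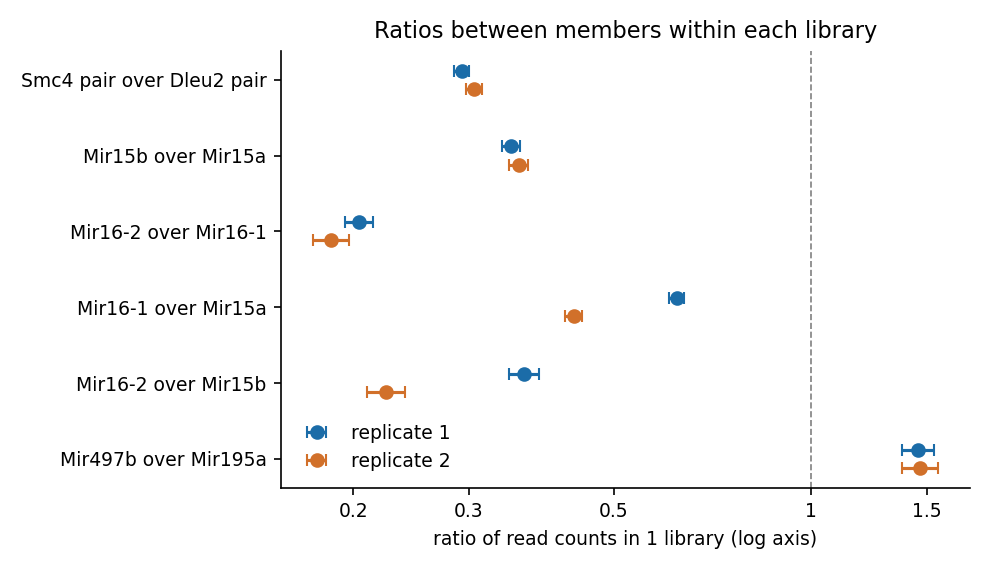
Ratio of read counts between genes within a library (horizontal axis, log axis), for replicate 1 (blue) and replicate 2 (orange), with exact 95% binomial intervals for counting error. Ratios between the Smc4 pair and the Dleu2 pair differ less between the libraries, as 0.293 and 0.306 for the pair sums. On the log2 scale these differences are -0.06 for the pair sums (counting SE 0.03), -0.04 for Mir15b over Mir15a (counting SE 0.03) and 0.14 for Mir16-2 over Mir16-1 (counting SE 0.06). Mir16-1 over Mir15a (0.623 and 0.434) and Mir16-2 over Mir15b (0.365 and 0.224) lie apart.

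The difference between the libraries in each member was set beside that of all other genes. A two-sided exact binomial test with counting error alone, Benjamini-Hochberg adjusted over 437 genes, called 4 of the 5 members, where it called 41.6% of all genes tested. Of these members 2 were higher in replicate 1, beside 21.3% of all genes tested, and 2 in replicate 2, beside 20.4%. Genes with more reads are called more readily by this test. Of the 437 genes, 190 reached 100 CPM in the mean, a level that all members exceeded. The shares over all genes thus include many genes below the members, and no share was computed for genes at their levels. Mir16-2 was higher in replicate 1 with a log2 ratio of 0.50 (counting SE 0.05, exact binomial adjusted p = 1.21e-19), and Mir16-1 with 0.36 (counting SE 0.02, adjusted p = 1.75e-50). Mir15b (log2 ratio -0.20, adjusted p = 6.98e-12) and Mir15a (-0.16, adjusted p = 3.45e-21) were lower in replicate 1. Mir497b, read on its opposite strand, had a log2 ratio of 0.06 (adjusted p = 0.263).

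Such a test compares 2 libraries and takes no account of the spread between pools of embryos. The edgeR exact test with the common dispersion of these libraries (a biological coefficient of variation of 16.4%) called 0 of 437 genes, while 25 had an unadjusted p under 0.05. None of the members was among those 25, as their unadjusted p-values ran from 0.157 for Mir16-2 to 0.901 for Mir497b. With 1 library on each side, that dispersion was estimated from the very differences tested, so few calls could come of it and the count of 0 does not show that the libraries were alike. Among the 190 genes at 100 CPM or more, whose log2 ratios had an SD of 0.32, the change of Mir16-2 was larger in size than that of 86.3% of genes, of Mir16-1 than 75.8%, of Mir15b than 56.3%, of Mir15a than 46.3% and of Mir497b than 18.9%.

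**Figure D3:**
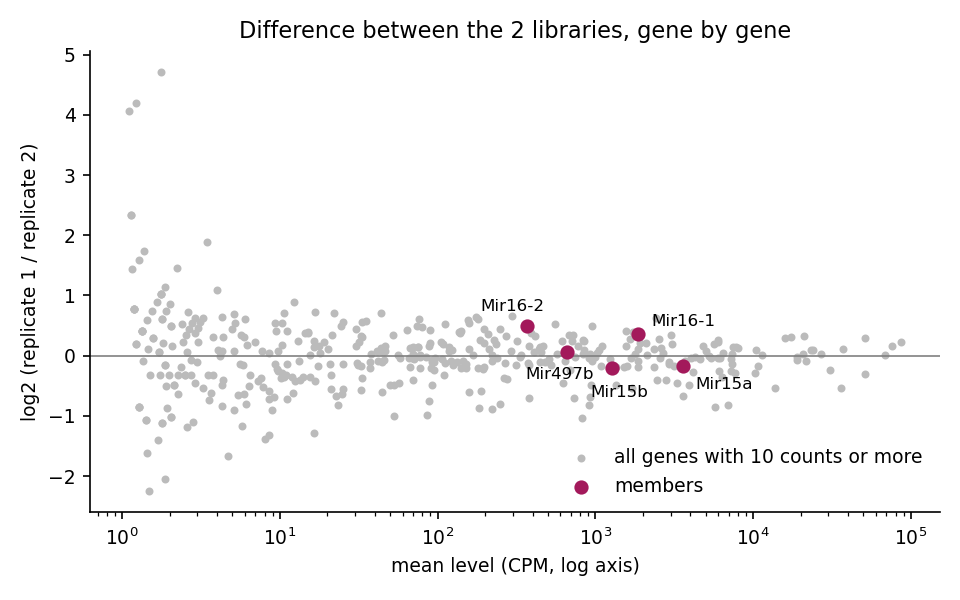
Log2 ratio of replicate 1 over replicate 2 (vertical axis) against the mean level (horizontal axis, CPM, log axis) for the 437 genes tested, members in purple. Mir16-2 (0.50) and Mir16-1 (0.36) lie above 0, Mir15b (-0.20) and Mir15a (-0.16) below it, and all 5 lie within the cloud of other genes. Mir497b is shown by its opposite strand.

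Mir497 and Mir195a, its neighbour on the same strand 241 bases away (chr11:70235042-70235135), kept nearly the same ratio in both libraries. Mir195a stood at 461 CPM in replicate 1 and 440 CPM in replicate 2, between Mir497b and Mir16-2 in level. The ratio of Mir497, read opposite to Mir497b, to Mir195a was 1.46 in replicate 1 (1.38 to 1.54) and 1.47 in replicate 2 (1.38 to 1.56), a difference of -0.01 on the log2 scale (counting SE 0.06). In mice, miR-195 is known for its part in the arrest of heart muscle cell division after birth. 

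The same seed was carried by 11 genes of the RefSeq table. Counting Mir497 through the row of Mir497b, all 11 were measured, 7 were detected, and Mir195b, Mir6342, Mir6353 and Mir6419 had 0 counts in both libraries. The arms of a hairpin were not counted apart, so reads of 3′ products with other seeds may be included. Together the reads of these genes amounted to 7.65% ± 0.07 of all own-strand counts. The members made up 10.1% of this sum in replicate 1 and 10.2% in replicate 2. The X-linked Mir322, at 68344 ± 659 CPM, made up 89.3% of it in both libraries. Because reads of miR-16-5p that match both copies are missing from the members' counts, the members' part of hairpin reads is a lower limit. Their part of the reads that carry the seed was not measured.

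Of 4 genes whose products share only part of the seed, 2 lay in the range of the members by assigned reads. Mir503 (2598 ± 156 CPM), whose product shares bases 2 to 7 with the members, stood between Mir15a and Mir16-1, and Mir107 (1568 ± 123 CPM), in which the shared bases start at base 1, between Mir16-1 and Mir15b. Mir103-2 (89.2 ± 18.2 CPM) and Mir103-1 (4.01 ± 2.14 CPM) had fewer assigned reads than every member. Like the Mir16 genes, Mir103-1 and Mir103-2 carry a single mature product in 2 places, and they share a stretch with another gene, as does Mir107. Reads that match several places are left out, so the values of Mir103-1, Mir103-2 and Mir107 are lower limits.
miR-503-5p: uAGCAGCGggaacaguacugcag
miR-322-5p: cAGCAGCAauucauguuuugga
miR-107-3p: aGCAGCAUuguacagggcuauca
miR-103-3p: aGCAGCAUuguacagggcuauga
Capitals again mark bases 2 to 8, which are the same in miR-322-5p as in miR-15b-5p, miR-15a-5p, miR-16-5p and miR-497a-5p.

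**Figure D4:**
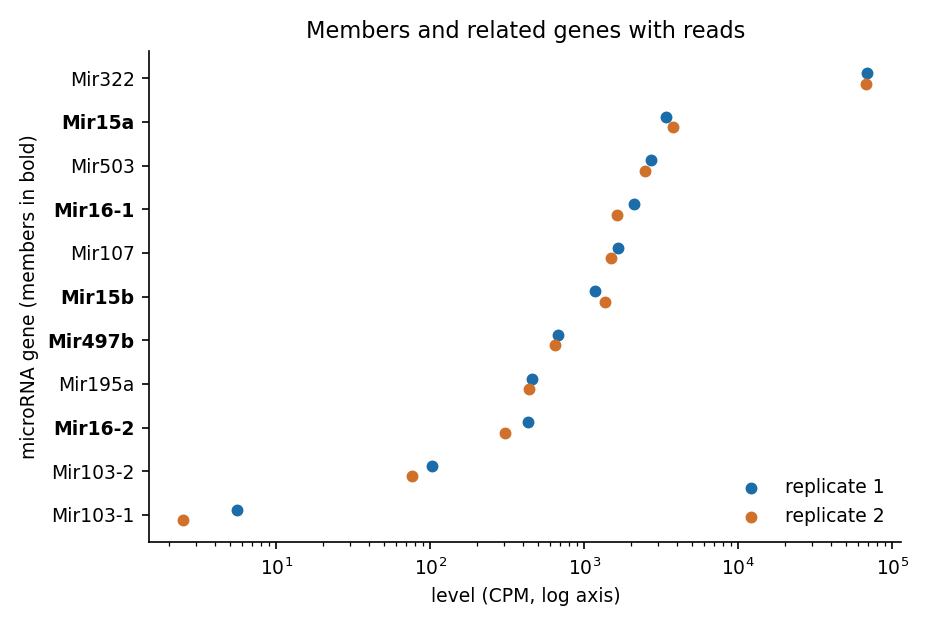
Level (horizontal axis, CPM, log axis) of the members, in bold, and of the related genes that gave reads, in replicate 1 (blue) and replicate 2 (orange). Mir497b is shown by its opposite strand. By assigned reads, Mir322 at 68344 CPM in the mean stands above all members, and Mir103-1 at 4.01 CPM, a lower limit, below them.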

How the data were processed

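The authors deposited whole-number read counts per microRNA gene for each library, placed on mm10 and counted over GENCODE M4, per the README deposited with each library. For the aligner, the counter and read trimming, names and settings were not given in the sources used here. Each table has 3 count columns, and the first equalled the sum of the other columns, read as both strands, own strand and opposite strand. The 4 rows that name no gene held 57.5% of the reads of replicate 1 and 63.0% of replicate 2 and were left out.

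Here, 1894 of 1973 gene identifiers were matched to GENCODE M21. Sequences came from RefSeq (GRCm38.p6). The own strand was counted, and for Mir497b the opposite strand. The members, lists and tests were chosen with earlier results of these data known. Genes named beside the members are those of the seed group and the nearest in level. Ratios used 0.5 added counts. Libraries were compared across all genes with 10 counts or more by an exact binomial test (scipy 1.17.1, Benjamini-Hochberg adjusted, threshold 0.05) and, as an alternative, edgeR 4.0.16. With a single group no quasi-likelihood test between conditions was possible. Both tests were also checked on artificial counts with known changes. These counts had counting error alone for the binomial test, and the edgeR test was given their true dispersion. The checks therefore do not cover the spread between pools of embryos or a dispersion estimated from the libraries tested. Alternatives were the scaling (TMM, DESeq2 1.42.0, other totals), the strand, the pseudocount, the thresholds, the seed length and leaving out each library.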

Additional observations from a re-analysis of the deposited data

Results flagged for a closer look

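The own strand of Mir497b, which no comparison used, held 5 counts in replicate 1 and 3 counts in replicate 2. The 3 counts that a count of 0 allows are a bound for genes without reads, not a threshold for an observed count. No difference between the libraries is drawn from these counts.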

How the results depend on the processing

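Of 88 recomputed values, 24 left out a library and could not leave the spread between replicates, as there are only 2, and 9 counted both strands of genes with 0 opposite counts, so these say nothing about stability. Of the other 55, 45 stayed within the spread between replicates or within 1.5 times of a count, and 10 moved. The 6 log2 ratios recomputed under another pseudocount, strand or left-out library kept their sign. Divided by all reads of a library, the mean levels were 1419 CPM for Mir15a, 752 for Mir16-1, 501 for Mir15b, 262 for Mir497b and 148 for Mir16-2, and the members' share was 0.308%. Over counts of both strands as the total, the share was 0.756%. These moves follow from the larger totals. With a seed of bases 2 to 7, the seed group held 7.91% of the counts, by the addition of Mir503. The edgeR exact test, whose dispersion came from the same 2 libraries, called 0 genes and 0 members, against 182 genes and 4 members with counting error alone, and 25 genes had an unadjusted p under 0.05. Without replicate 1 or replicate 2 in turn, the log2 ratio of Mir16-1 to Mir15a was -1.20 and -0.68, and that of Mir16-2 to Mir15b -2.16 and -1.45. No paired analysis was possible because there is a single group. A test between libraries cannot be run with a library left out. Reads of miR-16-5p, set apart because they map to 2 places, limit every value of Mir16-1 and Mir16-2.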

Other observations

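Of the measured genes with a RefSeq mature entry, 51 had, like Mir16-1 and Mir16-2, a mature arm that is found in another gene beside an arm that is not. Of these, 31 were detected, with a median of 84.8 CPM among the detected. Of 830 genes with no arm found in another gene, 226 were detected, with a median of 384 CPM. Mir16-1 at 1874 CPM and Mir16-2 at 367 CPM stood above the median of their class. At 100 CPM or more the class held 13 genes, 6 higher in replicate 1 and 7 higher in replicate 2, with a median log2 ratio (replicate 1 over replicate 2) of -0.03 and a range from -0.82 for Mir181a-2 to 0.62 for Mir181b-2. Mir16-2 at 0.50 and Mir16-1 at 0.36 came next below Mir181b-2. Reads that map to several places numbered 252 times the assigned reads of both Mir16 genes in replicate 1 and 329 times in replicate 2, and the part of miR-16-5p in them was not measured.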
